A study of Homo sapiens with 72 samples.

Results

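The genes described here encode the proteins that bring iron into a cell, store it and sense it. They are TFRC (transferrin receptor 1), SLC11A2 (the divalent metal transporter DMT1), FTH1 and FTL (the heavy and light subunits of ferritin), ACO1 (iron regulatory protein 1, IRP1) and IREB2 (iron regulatory protein 2, IRP2). They were chosen by symbol, and the 6 rows were found among the 44659 gene names of the count table. In A375 melanoma cells at 0 h, the expression level of FTH1 was 1.53-fold higher and that of FTL 0.770-fold that of controls after CTU2 knockdown, so that the paired ferritin subunits moved in opposite directions. Glutamine depletion lowered TFRC to 0.600-fold. After transcription was blocked, IREB2 fell in all 4 conditions, and did so further than the median gene. SLC11A2 also passed the test for a decrease in each, as did 47.5 to 64.3% of all genes, but lay close to the median gene in the siRNA experiment.

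As background, transferrin-bound iron enters a cell with the transferrin receptor, is released in endosomes and crosses into the cytosol through DMT1. Iron that is not used is stored inside the ferritin shell, whose heavy subunit oxidises iron and whose light subunit helps to form the mineral core. When iron is scarce, IRP1 and IRP2 bind hairpins called iron-responsive elements (IREs). Binding in the 5′ UTR of ferritin mRNAs blocks their translation, whereas binding in the 3′ UTR of TFRC mRNA protects it from decay. IRP1 carries an iron-sulphur cluster and acts as an aconitase when iron is plentiful, while IRP2 is degraded through the ubiquitin ligase subunit FBXL5.

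The study asked how the loss of CTU2, part of the enzyme that thiolates the wobble uridine of certain tRNAs, and the lack of glutamine change mRNA levels and translation-dependent mRNA decay (TDD). Cells of the human melanoma line A375 were either reverse-transfected for 42 h with a pool of 2 siRNAs against CTU2 (siCTU2) or with 1 control siRNA (siGL2), or given fresh medium lacking glutamine (mQ) or holding 2 mM of it (pQ) for 18 h. Each of these 4 conditions was then given 25 µM triptolide, which blocks transcription (the T arm), or triptolide with 100 µg/ml cycloheximide, which blocks translation as well (the TCHX arm), and harvested at 0, 3 or 5 h. Each of the 24 groups had 3 libraries of cytoplasmic RNA, made with a kit that reads the 3′ ends of polyadenylated RNA, giving 72 libraries in all. At 0 h both arms were harvested at once after the drugs were added. The siRNA experiment and the medium experiment each had their own control, and the 2 experiments were not compared by a test.

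Sequences of 2 kinds bear on these genes. The first are the IREs, searched on both UTRs of every coding transcript of the members as 17 bases: a C, 5 stem bases, CAGTG with 1 further base other than G as the loop, and 5 bases that pair with the stem, G-T pairs allowed. Only the transcribed strand was read, and the loop bases CAGTG are in capitals below. The TFRC sites lie in its 3′ UTR and the ferritin sites in the 5′ UTRs.
TFRC site 1: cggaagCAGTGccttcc
TFRC site 2: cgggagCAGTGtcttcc
TFRC site 3: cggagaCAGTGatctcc
TFRC site 4: cgggaaCAGTGtttccc
FTH1 site: cttcaaCAGTGcttgga
FTL site: cttcaaCAGTGtttgga

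In GENCODE v44 annotation of GRCh38, the TFRC sites lie on the minus strand at chr3:196050985-196051001, chr3:196050581-196050597, chr3:196050516-196050532 and chr3:196050469-196050485, inside the gene at chr3:196012511-196082153. The FTH1 site lies on the minus strand at chr11:61967580-61967596, in the gene at chr11:61959718-61967634. The FTL site lies on the plus strand at chr19:48965341-48965357, in the gene at chr19:48965309-48966879. The FTH1 and FTL sites share their stem bases and the loop CAGTG, and the base after it is c in FTH1 and t in FTL. The pattern was present in 13 of 16 coding TFRC transcripts, 9 of 10 of FTH1 and 1 of 1 of FTL. It was not found in the UTRs of the coding transcripts of ACO1 (chr9:32384603-32454769, plus strand), IREB2 (chr15:78437431-78501453, plus strand) or SLC11A2 (chr12:50979401-51028566, minus strand), of which there are 3, 7 and 24. Among 20457 canonical coding transcripts, 12 (0.0587%) held the pattern in the 5′ UTR and 98 (0.479%) in the 3′ UTR. The pattern allows no bulge or mispair in these stem bases, so an IRE of another form would be missed in any member, SLC11A2 included. A match describes letters in a UTR and says nothing of whether a protein was bound in these cells.

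The second are the siRNAs against CTU2, shown because any stretch they share with a member would bear on its level in siCTU2 cells. They are given as the sense strand, 5′ to 3′, with the 7 bases that pair with the guide's seed in capitals.
siCTU2 number 1: cuaucaagcucAUGACCAa
siCTU2 number 2: gcgugaacaugAAGGACUu

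The siRNAs match CTU2 at chr16:88713389-88713407 (exon 8) and chr16:88714907-88714925 (exon 13). No member held a full match. The 7 bases in capitals occurred once in the 3′ UTR of ACO1 for number 1 and once in that of SLC11A2 for number 2, and in no 3′ UTR of the other 4 members.

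Depth ranged from 5987692 to 15534331 counts per library, with a median of 10300512. CTU2 itself had 0.133 to 2.95 CPM (a gene's share of the library's total count, on the usual scale) in siCTU2 libraries, against 13 to 38.7 in the other 3 conditions, with 1 exception. In the library labelled siCTU2 TCHX 5 h replicate 3, CTU2 was at 10.4 CPM. That library and those labelled mQ T 5 h replicate 3 and pQ TCHX 0 h replicate 3 stood apart from the other 69. They had 19896 to 20364 genes with a count (15507 to 17495 elsewhere), and the leukocyte genes PTPRC and CD3E at 31.1 to 32.6 CPM (at most 0.759 and 0.304 elsewhere). Across 6425 genes they correlated with each other at 0.988 (Pearson, log scale) and with their own groups at 0.897 to 0.958. JUN, a very unstable mRNA, was at 25.9 CPM in the library labelled mQ T 5 h replicate 3 and at 0 to 3.6 in the other T libraries at 5 h. In these 3 libraries TFRC was at 303 to 308 CPM, FTH1 at 2016 to 2461 and FTL at 1723 to 1840, while ACO1 was at 31.7 to 34.4, IREB2 at 115 to 148 and SLC11A2 at 46.0 to 55.3. Results that rest on them are therefore given with and without them where a value without them was computed. Of 8 genes of the melanocyte lineage and melanoma, 6 averaged 1 CPM or more, among them SOX10, MITF and S100B, while MLANA and TYR did not. Keratinocyte, fibroblast, erythroid and endothelial markers summed to at most 1.22, 4.20, 0.474 and 0.971 CPM in any library.

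All members passed the filter on low counts in every comparison. The table counts whole genes, so the SLC11A2 isoforms that are known to differ in carrying an IRE cannot be told apart. Their counts ranged from 133 in 1 library for SLC11A2 to 56171 for FTH1. FTH1 shares exonic bases on the other strand with BEST1, which had 0.113 to 10.4% of the FTH1 count, and TFRC with an unnamed gene on the other strand. Whether counting used the strand is not given in the sources used here. The pseudogene FTH1P3 had 0.0164 to 0.779% of the FTH1 count. In bulk RNA, fewer cells of a type and less RNA per cell cannot be told apart. Nothing in the labels says that replicates came from separate cultures, so p-values measure the spread between these libraries.

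The first comparison asked what CTU2 knockdown did to the iron genes before any decay (0 h, T arm). FTH1 was at 2953, 3830 and 3426 CPM in the siCTU2 libraries and at 2108, 2394 and 2146 CPM in the siGL2 libraries. Every siCTU2 library was above every siGL2 library. The log2 fold change was 0.62 (edgeR quasi-likelihood test with Benjamini-Hochberg adjustment, adjusted p = 3.70e-06, SE 0.07), at percentile 88.5 of all genes tested. The light subunit went the other way. FTL was at 1442, 1747 and 1637 CPM in siCTU2 libraries and at 1877, 2279 and 2102 CPM in siGL2 libraries. No siCTU2 library reached the lowest siGL2 library. The log2 fold change of FTL was -0.38 (edgeR adjusted p = 5.48e-04, SE 0.07), at percentile 21.3.

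Because FTH1 and FTL subunits assemble into one shell, their ratio within a library was also taken, which needs no scaling between libraries. The log2 ratio of FTH1 to FTL counts was 1.03 to 1.13 in siCTU2 cells at 0 h (mean 1.08 ± 0.05, SD, n = 3) and 0.03 to 0.17 in siGL2 cells (0.09 ± 0.07). The difference was 0.99, with a two-sided exact permutation p of 0.1, the smallest that 3 against 3 allows. In the TCHX arm at 0 h the difference was 0.77, and at 3 h it was 0.96 in the T arm and 1.08 in the TCHX arm, with the groups not overlapping in any of these. At 5 h in the TCHX arm it was 1.44 without overlap, with 1 siCTU2 library that stands apart among them. The siGL2 ratios there ran from -2.33, in replicate 3, to 0.02, and the siCTU2 ratios from 0.24 to 1.22. That low siGL2 replicate widened the difference. At 5 h in the T arm the difference was 1.02, but the groups overlapped (exact permutation p = 0.4), since replicate 3 of both was low in FTH1. In the medium experiment the ratio at 0 h differed by -0.40 between mQ and pQ in the T arm (exact permutation p = 0.3) and by 0.05 in the TCHX arm (exact permutation p = 0.7), and its groups overlapped in both arms. Each difference is in log2 units.

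TFRC, the uptake receptor, was at 365, 455 and 405 CPM in siCTU2 libraries and at 315, 382 and 346 CPM in siGL2 libraries. These ranges overlapped. Its log2 fold change was 0.23 (edgeR adjusted p = 0.0427, SE 0.08), percentile 69.8. This call was lost in the TCHX arm at 0 h, where TFRC was at 297, 412 and 369 CPM against 332, 384 and 357 (log2 fold change 0.01, edgeR adjusted p = 0.923). It was also lost in both arms together (0.12, adjusted p = 0.186) and when siCTU2 replicate 2 (0.15, adjusted p = 0.197) or 3 (adjusted p = 0.0575), or siGL2 replicate 1 (0.15, adjusted p = 0.243) or 3 (0.22, adjusted p = 0.106), was left out. With the replicate number as a block the TFRC call held. The calls for FTH1 and FTL held in the TCHX arm and under every other alternative tried, with log2 fold changes of 0.38 to 0.70 for FTH1 and -0.46 to -0.31 for FTL.

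SLC11A2, which carries ferrous iron across membranes, was at 75.3, 78.8 and 78.1 CPM in siCTU2 libraries and at 63.0, 65.6 and 73.1 CPM in siGL2 libraries. The groups did not overlap, yet the log2 fold change of 0.20 (SE 0.09) missed the threshold (edgeR adjusted p = 0.0944). It passed when both arms at 0 h were fitted together (0.18, edgeR adjusted p = 0.0313). The mRNAs of the iron sensors were close between conditions. ACO1 was at 30.2, 29.4 and 28.0 CPM against 30.3, 25.8 and 33.2 CPM, a log2 fold change of -0.03 (edgeR adjusted p = 0.887, SE 0.13). IREB2 was at 172, 178 and 180 CPM against 188, 192 and 180 CPM, a log2 fold change of -0.08 (edgeR adjusted p = 0.406, SE 0.07). In all, 3 of the 6 members passed the test, 2 higher and 1 lower, beside 36% of the 12292 genes tested (2194 higher and 2235 lower), so the share of members is not far from that of all genes.

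**Figure D1:**
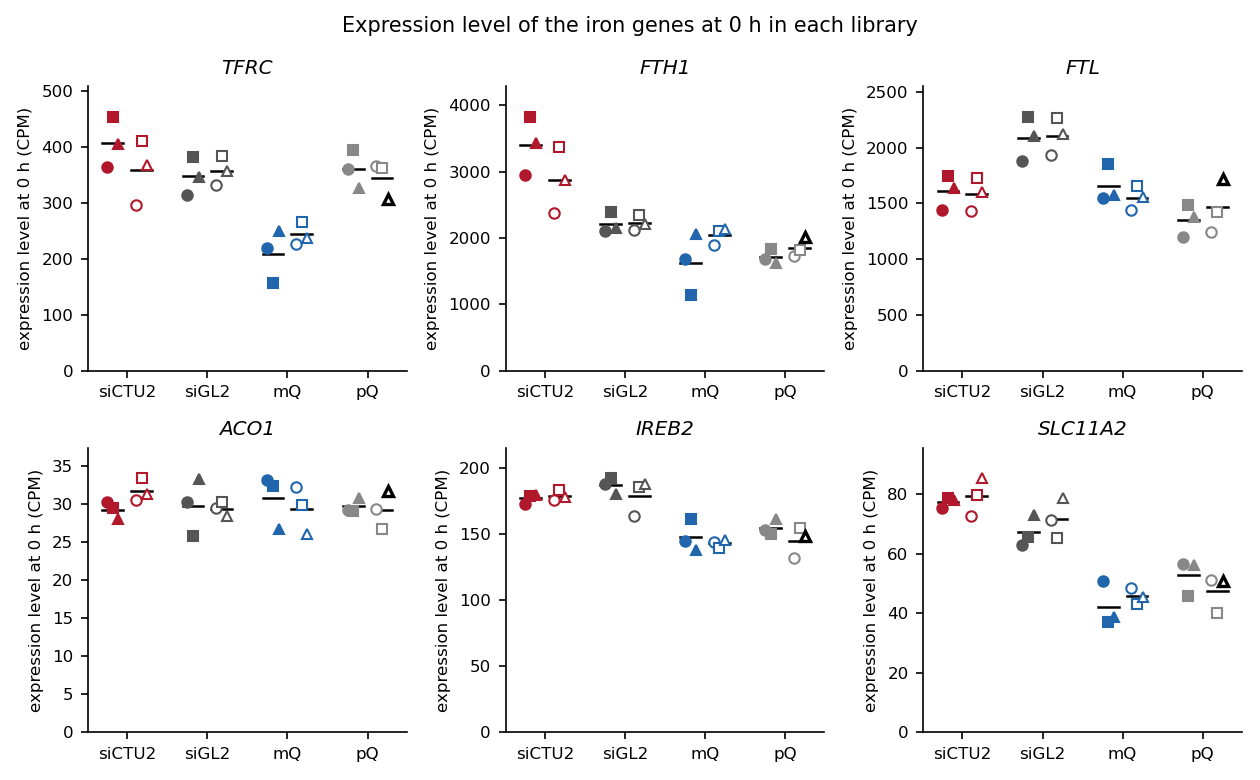
Expression level at 0 h (CPM, y axes that differ between panels) of each member in siCTU2, siGL2, mQ and pQ cells; each symbol is a library (circle, square and triangle for replicates 1, 2 and 3, filled for the T arm and open for the TCHX arm, black outline for the library that stands apart), and the black bar is the mean. FTH1 in siCTU2 cells lies above its control in both arms, FTL lies below, and TFRC in mQ cells lies below pQ.

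The second comparison asked what glutamine depletion did at 0 h. TFRC was at 220, 157 and 251 CPM in mQ libraries and at 361, 396 and 328 CPM in pQ libraries. Every mQ library was below every pQ library. Its log2 fold change was -0.74 (edgeR adjusted p = 0.00513, SE 0.15), at percentile 7.93 of all genes. In the TCHX arm at 0 h, TFRC was at 228, 267 and 238 CPM in mQ and at 367, 363 and 307 CPM in pQ, again without overlap. The third pQ value there is from the library labelled pQ TCHX 0 h replicate 3. TFRC was called lower in mQ cells under every alternative tried, with log2 fold changes of -0.89 to -0.48.

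FTL was at 1546, 1854 and 1572 CPM in mQ libraries and at 1199, 1486 and 1375 CPM in pQ libraries. The lowest mQ library was just above the highest pQ library. Its log2 fold change was 0.35 (edgeR adjusted p = 0.0362, SE 0.11), percentile 76.3. The call was not stable, being lost in the TCHX arm (0.10, adjusted p = 0.697), in both arms together (0.22, adjusted p = 0.0848), and when mQ replicate 1 (adjusted p = 0.0525) or pQ replicate 1 (adjusted p = 0.184), 2 (adjusted p = 0.0585) or 3 (adjusted p = 0.0851) was left out. The library labelled pQ TCHX 0 h replicate 3 had the highest FTL of its group, at 1723 CPM. Without it, in a setting chosen after seeing the data, the FTL call was kept in the TCHX arm. FTH1 was at 1685, 1143 and 2068 CPM in mQ and at 1686, 1831 and 1626 CPM in pQ. Its mQ libraries spread on both sides of the pQ libraries, and the log2 fold change was -0.02 (edgeR adjusted p = 0.946, SE 0.16). In the TCHX arm, mQ libraries were at 1898, 2099 and 2137 CPM and pQ libraries at 1725, 1823 and 2016 CPM. Without the library labelled pQ TCHX 0 h replicate 3, FTH1 was called higher in mQ cells in that arm (log2 fold change 0.23, edgeR adjusted p = 0.0469).

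SLC11A2 was at 50.9, 37.2 and 38.9 CPM in mQ and at 56.6, 45.7 and 56.3 CPM in pQ, with overlapping groups and a log2 fold change of -0.27 (edgeR adjusted p = 0.198, SE 0.15). ACO1 changed by 0.10 (edgeR adjusted p = 0.621, SE 0.14) and IREB2 by -0.01 (edgeR adjusted p = 0.958, SE 0.10), both on the log2 scale. ACO1 was at 33.2, 32.4 and 26.7 CPM in mQ and at 29.2, 29.1 and 30.7 CPM in pQ. IREB2 was at 145, 161 and 138 CPM in mQ and at 153, 150 and 161 CPM in pQ, so both sensors overlapped between media. Of the members, 2 of 6 passed, 1 in each direction, beside 24.8% of the 12374 genes tested.

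**Figure D2:**
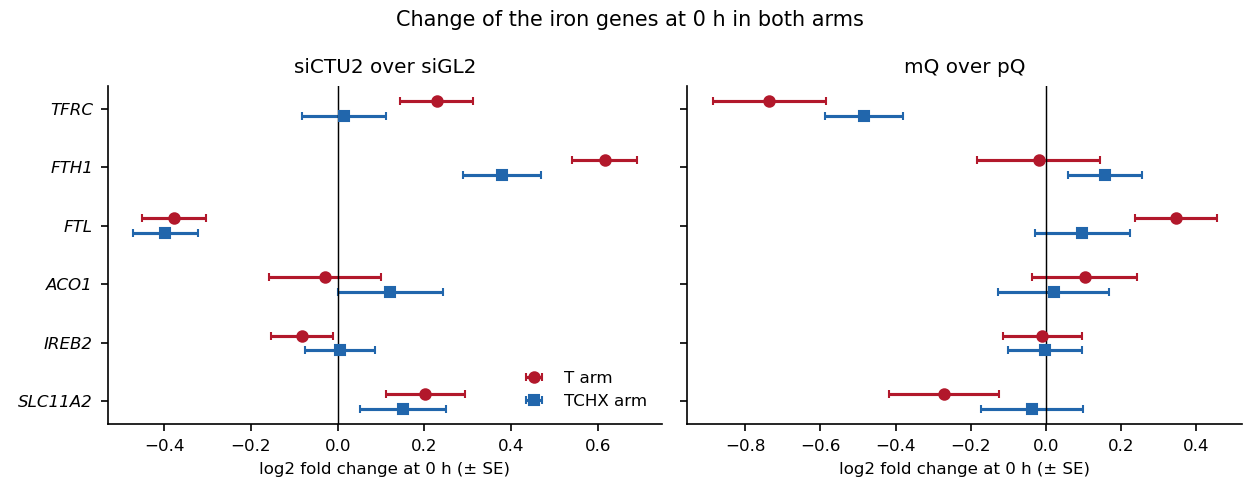
Log2 fold change at 0 h (x axis) of each member for siCTU2 against siGL2 and for mQ against pQ, in the T arm (red circles) and the TCHX arm (blue squares), with bars of 1 SE. FTH1 and FTL lie on opposite sides of 0 in the siRNA panel in both arms, and TFRC lies below 0 in the medium panel in both arms.

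Set side by side as mean levels of the T arm at 0 h (CPM, mean ± SD, n = 3), FTH1 was highest in siCTU2 cells (3403 ± 439), then siGL2 (2216 ± 156), pQ (1714 ± 105) and mQ (1632 ± 465), where pQ and mQ were within their spread. FTL was highest in siGL2 cells (2086 ± 202), then mQ (1657 ± 171), siCTU2 (1609 ± 155) and pQ (1353 ± 144), where mQ, siCTU2 and pQ overlapped in mean ± SD. TFRC was at 408 ± 45.1 in siCTU2, 361 ± 34.0 in pQ, 348 ± 33.1 in siGL2 and 209 ± 47.7 in mQ, and only mQ lay outside the spread of its neighbour. IREB2 was at 187 ± 6.27 in siGL2, 177 ± 3.85 in siCTU2, 154 ± 5.91 in pQ and 148 ± 12 in mQ, and SLC11A2 at 77.4 ± 1.84 in siCTU2, 67.2 ± 5.26 in siGL2, 52.9 ± 6.18 in pQ and 42.3 ± 7.45 in mQ. ACO1 stayed between 29.2 and 30.8 on average in the 4 conditions, all within their spread. Levels between the siRNA and medium experiments were not tested.

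The third question was how long each mRNA lasted once triptolide had stopped its synthesis. Counts were scaled to genes that kept or gained share over time, so a change here is relative to those stable genes. There were 198 of them in the siRNA and 82 in the medium experiment, with no member among them. The median gene changed by -0.71 in siCTU2, -0.59 in siGL2, -0.66 in mQ and -0.71 in pQ cells on the log2 scale, averaged over 3 and 5 h. Each member is therefore read against that median. Scaling the libraries by TMM instead put the median between -0.02 and 0.02, and on that scale every estimate of TFRC, FTH1, FTL and ACO1 was above 0 and every estimate of IREB2 and SLC11A2 below 0.

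Among the members, IREB2 had the largest log2 decrease in each of the 4 conditions. In siGL2 cells it was at 51.1, 50.4 and 50.2% of its 0 h level at 3 h and at 36, 33.4 and 34.3% at 5 h. In siCTU2 cells it was at 50.1, 57.3 and 54.7% at 3 h and at 31.0, 40.7 and 30.3% at 5 h. In pQ cells it was at 46.6, 43.2 and 35% at 3 h and at 29.2, 31.2 and 22.6% at 5 h. These libraries all lay below 60% and the replicates were close. In mQ cells it was at 32.8, 31.7 and 38.0% at 3 h and at 16, 16.3 and 60.4% at 5 h, the last being the library that stands apart. The log2 changes of IREB2 were -1.22 (edgeR adjusted p = 9.03e-08, SE 0.11) in siCTU2, -1.26 (adjusted p = 1.61e-07, SE 0.11) in siGL2, -1.62 (adjusted p = 2.45e-04, SE 0.28) in mQ and -1.56 (adjusted p = 2.72e-08, SE 0.13) in pQ cells. They lay 0.51 to 0.96 below the median gene, at percentiles 24.3, 18.7, 11.9 and 15.5. Without the libraries that stand apart, the mQ value was -1.98 (edgeR adjusted p = 4.80e-10), and without replicate 2 it was -1.21 (adjusted p = 0.093). Under TMM scaling IREB2 remained called lower in all 4 conditions, with log2 changes of -0.99 to -0.51.

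SLC11A2 had the next largest decrease in each condition. In siGL2 cells it was at 78.5, 73.9 and 79.2% of its 0 h level at 3 h and at 62.7, 51.9 and 38.1% at 5 h. In pQ cells it was at 53.4, 55.5 and 38.7% at 3 h and at 56.7, 51.9 and 30.1% at 5 h. Replicate 3 was the lowest at 5 h in both. Its log2 changes were -0.71 (edgeR adjusted p = 0.00189) in siCTU2, -0.68 (adjusted p = 0.0129) in siGL2, -0.93 (adjusted p = 0.00106) in mQ and -1.08 (adjusted p = 5.24e-05) in pQ cells. These are calls against the stable genes, since SLC11A2 was at percentiles 50.4, 43.3, 31.8 and 28.2, near or below the median gene. The calls were also lost without replicate 1 in siCTU2 (edgeR adjusted p = 0.0611), siGL2 (adjusted p = 0.0941) and mQ cells (adjusted p = 0.223), and without replicate 2 in siGL2 (adjusted p = 0.145) and mQ cells (adjusted p = 0.115). Under TMM scaling SLC11A2 changed by -0.02, -0.08, -0.29 and -0.39 and was called in none of the conditions.

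The ferritin light chain was among the longer-lasting mRNAs. FTL was at 84.3, 86.9 and 88.9% of its 0 h level at 3 h and at 97.1, 98.4 and 87.3% at 5 h in siGL2 cells. In siCTU2 cells it was at 78.8, 83.9 and 74.6% at 3 h and at 85.3, 88.0 and 74.8% at 5 h. All FTL values in the T arm lay between 68.0 and 98.4%. The log2 changes of FTL were -0.31 (edgeR adjusted p = 0.0288), -0.14 (adjusted p = 0.344), -0.41 (adjusted p = 0.00636) and -0.32 (adjusted p = 0.0440) in siCTU2, siGL2, mQ and pQ cells, which is 0.25 to 0.45 above the median gene and at percentiles 71.8 to 88.7. The calls were fragile. In siCTU2 and in pQ cells they were lost whichever replicate was left out (lowest edgeR adjusted p 0.0922 and 0.0877), and in mQ cells without replicate 1 (adjusted p = 0.298) or 2 (adjusted p = 0.564). The direction depends on the scale, for under TMM scaling FTL changed by 0.41 (adjusted p = 0.0198), 0.47 (adjusted p = 0.0120), 0.28 (adjusted p = 0.103) and 0.39 (adjusted p = 0.0619).

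ACO1, in contrast to IREB2, passed edgeR's test in none of the conditions, and DESeq2's in mQ cells alone (adjusted p = 0.0489). It was at 92.7, 101 and 109% of its 0 h level at 3 h in siGL2 cells and at 68.1, 81.2 and 73.0% at 5 h. The lower values were all at 5 h. Its log2 changes were -0.22 (edgeR adjusted p = 0.117), -0.21 (adjusted p = 0.155), -0.29 (adjusted p = 0.0732) and -0.19 (adjusted p = 0.284), which is 0.37 to 0.53 above the median gene. at percentiles 80.2 to 89.3 ACO1 lasted longer than most mRNAs, and the mRNAs of the paired iron sensors thus stood near opposite ends of the ranking. That contrast between ACO1 and IREB2 is a description, as the difference between genes was not tested. Under TMM scaling ACO1 changed by 0.51 (edgeR adjusted p = 0.0140), 0.41 (adjusted p = 0.0850), 0.39 (adjusted p = 0.0792) and 0.54 (adjusted p = 0.0570).

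TFRC and FTH1 could not be placed firmly, because their replicates parted at 5 h. In siGL2 cells TFRC was at 85.3, 79.4 and 81.1% of its 0 h level at 3 h and at 81.7, 76.5 and 28.7% at 5 h. FTH1 in the same cells was at 94.9, 86.8 and 74.8% at 3 h and at 91.9, 84.7 and 21.6% at 5 h. Replicate 3 at 5 h was far below the other two for both genes, and the same was seen in siCTU2 and pQ cells, where TFRC was at 22.8% and 31.4% and FTH1 at 16.3% and 21.1% in replicate 3. In mQ cells, where replicate 3 at 5 h is a library that stands apart, TFRC was at 84.4, 106 and 87.5% and FTH1 at 124, 139 and 83.3%. The log2 changes of TFRC were -0.59 (edgeR adjusted p = 0.0585), -0.48 (adjusted p = 0.196), -0.22 (adjusted p = 0.428) and -0.66 (adjusted p = 0.0442) in siCTU2, siGL2, mQ and pQ cells. The pQ call was lost without replicate 1 (adjusted p = 0.142) or 2 (adjusted p = 0.308), and without the library that stands apart (adjusted p = 0.0594). Without replicate 2 TFRC was called in siCTU2 cells (-0.78, adjusted p = 0.0473), and without replicate 3 in siGL2 cells (-0.29, adjusted p = 0.0183). Under TMM scaling TFRC changed by 0.05, 0.09, 0.46 and 0.0129, none of them called. Those of FTH1 were -0.53 (edgeR adjusted p = 0.158), -0.40 (adjusted p = 0.435), 0.02 (adjusted p = 0.956) and -0.59 (adjusted p = 0.149). Without replicate 3 FTH1 was called higher in mQ cells (0.41, edgeR adjusted p = 0.00573). Under TMM scaling it changed by 0.10, 0.16, 0.71 and 0.08, none of them called. With the replicate number as a block, TFRC in siCTU2 cells passed the test (-0.64, edgeR adjusted p = 0.0287).

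The number of members called lower after the transcription block was 3 of 6 in siCTU2, 2 in siGL2, 3 in mQ and 4 in pQ cells. Beside them, 62.6%, 47.5%, 58.6% and 64.3% of all genes tested were called lower, so the members' counts do not stand out. With 8 and 3 stable genes that met the rule at both times in place of the larger sets, 6, 5, 5 and 6 members were called. The share of all genes called in that setting is not given here, so these counts do not set the members apart.

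**Figure D3:**
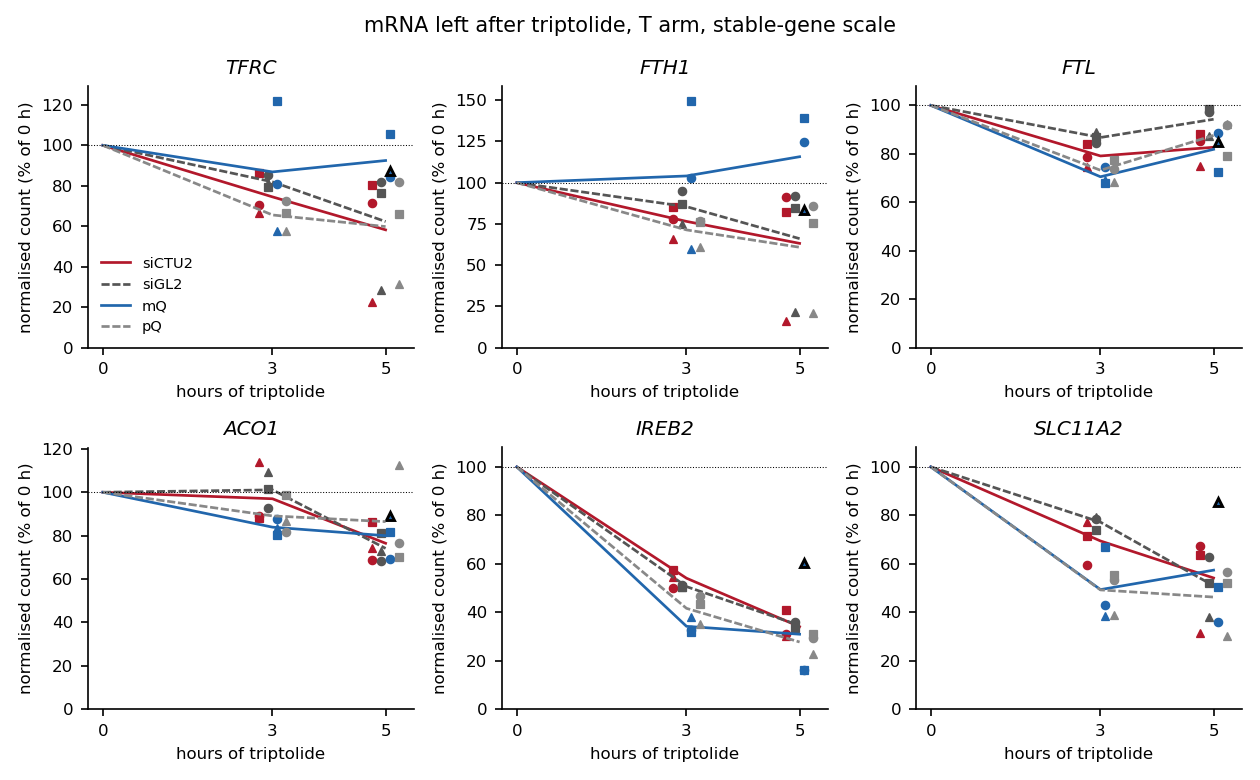
Percent of the 0 h level (y axis, stable-gene scale) against hours after triptolide (x axis) for each member in the T arm; points are libraries (circle, square and triangle for replicates 1, 2 and 3, black outline for the library that stands apart), lines join group means, and controls are dashed. IREB2 fell in every condition, and in siCTU2, siGL2 and pQ cells TFRC and FTH1 split at 5 h into replicates 1 and 2 and a low replicate 3.

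The gap of replicate 3 at 5 h was measured over the 6 groups (both arms) that hold no library standing apart, as log2(CPM + 1) of replicate 3 minus the mean of replicates 1 and 2. For FTH1 the median gap was -1.87 (-2.07 to -1.62), lower in 6 of 6 groups, and at percentile 1.93 of 6425 genes. For TFRC it was -1.17 (-1.24 to -1.03), lower in 6 of 6 groups, and at percentile 8.69. SLC11A2 was lower in 6 of 6 groups too, with a median gap of -0.46 (-0.77 to -0.16), but only at percentile 30.4. FTL and ACO1 went the other way, with median gaps of 0.30 (0.09 to 0.34) and 0.39 (0.29 to 0.86), at percentiles 71.6 and 77.4. IREB2 had a gap of 0.20 (percentile 66.1) and mixed signs.

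In CPM at 5 h, FTH1 was at 522 to 1097 in those 6 replicate 3 libraries and at 1805 to 4026 in the 16 libraries of replicates 1 and 2. TFRC was at 97.2 to 181 CPM against 204 to 469 CPM. Neither gene's ranges overlapped. At 0 h the corresponding median gaps were 0.02 for FTH1 and -0.00 for TFRC over 7 groups, so the split was seen at 5 h in both arms and not at 0 h. Among all genes the gap at 5 h ran from -1.42 to 0.86 (5th to 95th percentile), and at 0 h from -0.19 to 0.17, so replicate 3 at 5 h differed in many genes. What set replicate 3 apart at 5 h was not tested.

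**Figure D4:**
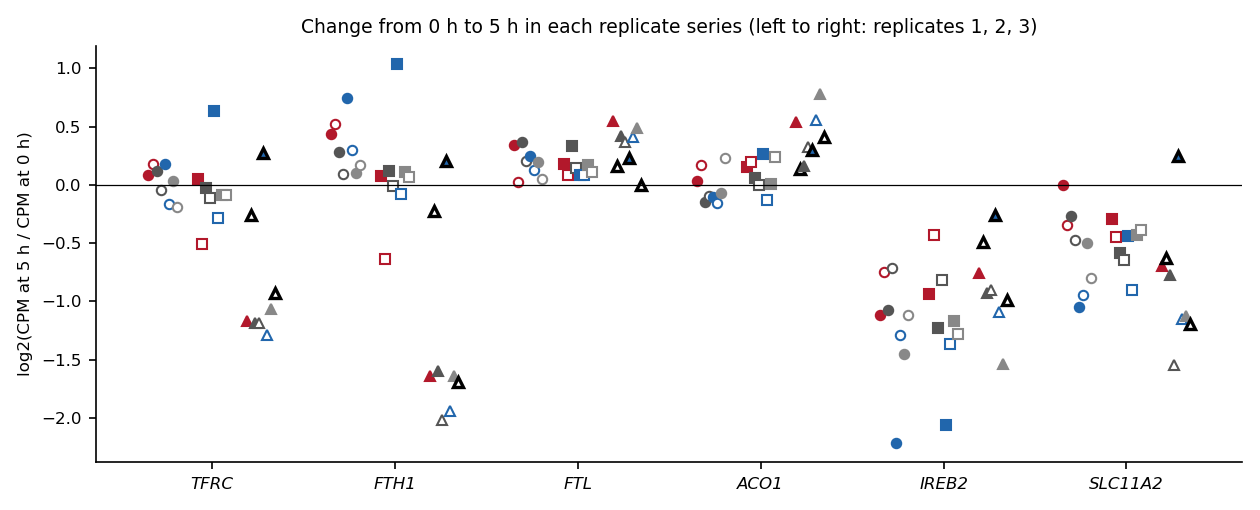
Change from 0 h to 5 h of each member as log2 of the ratio of CPM at 5 h to CPM at 0 h (y axis) in each replicate of the 4 conditions and both arms; circle, square and triangle mark replicates 1, 2 and 3, filled symbols the T arm and open symbols the TCHX arm, colours the conditions, and a black outline a series with a library that stands apart. For FTH1 the other 5 replicate 3 series lie at -2.02 to -1.59 and the 16 of replicates 1 and 2 at -0.64 to 1.03, and for TFRC at -1.29 to -1.07 and -0.51 to 0.63.

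The fourth question was how much of each mRNA was kept when translation was blocked too, which is the quantity behind the TDD index. IREB2 was the only member with a call. In siCTU2 cells it was at 65.6, 60.0 and 59.6% of its 0 h level at 3 h and at 46.1, 51.6 and 55.0% at 5 h in the TCHX arm. Each of these was above the matching T arm libraries, which were at 50.1 to 57.3% and 30.3 to 40.7%. These percentages set each arm against its own 0 h library, whereas the effect given next compares the arms directly. The last TCHX value comes from the library labelled siCTU2 TCHX 5 h replicate 3. The cycloheximide effect on IREB2 was 0.32 (log2, edgeR adjusted p = 0.0159, SE 0.09), where the median gene in siCTU2 cells had 0.22. The call held at 5 h alone (0.52, adjusted p = 0.00803), without that library (0.33, adjusted p = 0.0151) and by DESeq2. It was lost at 3 h alone (0.13, edgeR adjusted p = 0.897), without replicate 1 (adjusted p = 0.259) or 2 (adjusted p = 0.104), with the 0 h difference subtracted (adjusted p = 0.160), with stable genes at both times (adjusted p = 0.0686), with no low-count filter (adjusted p = 0.131) and under TMM scaling (0.09, adjusted p = 0.577), which is 7 of 12 alternatives.

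In siGL2 cells the TCHX arm held IREB2 at 59.3, 59.0 and 54.5% at 3 h and at 44.2, 43.6 and 30.6% at 5 h, an effect of 0.16 (edgeR adjusted p = 0.408), which passed without replicate 3 (0.22, adjusted p = 0.0284). In mQ cells it was at 45.8, 39.8 and 41.2% at 3 h and at 29.3, 24.3 and 29.1% at 5 h. The mQ effect was 0.06 (edgeR adjusted p = 0.929) with every library. Without the libraries that stand apart it was 0.56 (adjusted p = 4.20e-04), since mQ T 5 h then kept only the libraries at 16 and 16.3%. In pQ cells the effect was 0.03 (edgeR adjusted p = 0.945).

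The other 5 members had estimates below 0 in all 4 conditions, none of them called as scaled here. They ran from -0.39 to -0.11 for TFRC, -0.39 to -0.06 for FTH1, -0.15 to -0.14 for FTL, -0.20 to -0.03 for ACO1 and -0.29 to -0.10 for SLC11A2 on the log2 scale. The lowest values of TFRC and FTH1 were in mQ cells, whose T arm at 5 h holds a library that stands apart. Without single replicates those mQ effects ran from -0.59 to -0.12 for TFRC and -0.54 to -0.13 for FTH1, none called. Values below 0 mean that less was left with cycloheximide than without. On other scales 3 of them were called lower with cycloheximide. These were FTL (-0.38, edgeR adjusted p = 0.0141) and SLC11A2 (-0.30, adjusted p = 0.0371) in siCTU2 cells under TMM scaling, and FTL (-0.49, adjusted p = 0.0437) and ACO1 (-0.45, adjusted p = 0.0471) in pQ cells with stable genes at both times. The conditions are not independent checks of sign, since each mRNA is scaled to the same stable genes within an experiment. Members called for the cycloheximide effect numbered 1 of 6 in siCTU2 cells and 0 in siGL2, mQ and pQ cells, by edgeR as by DESeq2, beside 21.1%, 12.7%, 5.24% and 12.7% of all genes. At an unadjusted p under 0.05 the members numbered the same.

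Differences in decay between conditions were then tested. For siCTU2 against siGL2, the change over time differed by 0.04 for IREB2 (log2, 95% confidence interval -0.26 to 0.33), -0.16 for FTL (-0.49 to 0.17), -0.01 for ACO1 (-0.32 to 0.30) and -0.03 for SLC11A2 (-0.58 to 0.52). The intervals of TFRC (-0.97 to 0.75) and FTH1 (-1.28 to 1.02) were wide. No member was called by edgeR, and none had an unadjusted p under 0.05, beside 0.105% of all genes called (15 of 14259). For the ferritins, which differed in level at 0 h, no difference in mRNA loss was detected, and for FTH1 anything within that wide interval could not be told from 0.

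For mQ against pQ the change over time differed by 0.61 for FTH1 (edgeR adjusted p = 0.781, SE 0.51), 0.44 for TFRC (adjusted p = 0.793, SE 0.39) and -0.06 for IREB2 (adjusted p = 0.987, SE 0.34). No member was called, none had an unadjusted p under 0.05, and 0% of all genes were called (0 of 14177, with 878 at an unadjusted p under 0.05). Here the third replicate decided the outcome. Without replicate 3, which removes the library labelled mQ T 5 h replicate 3 and the low pQ library, the difference was 0.66 for FTH1 (edgeR adjusted p = 0.00541) and -0.72 for IREB2 (adjusted p = 0.00706). Without only the libraries that stand apart, it was 0.64 (adjusted p = 0.601) and -0.49 (adjusted p = 0.246).

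The cycloheximide effect did not differ between conditions for any member by edgeR, beside 0.379% of all genes in the siRNA experiment (54 of 14259) and 0% in the medium experiment (0 of 14177, with 525 at an unadjusted p under 0.05). For IREB2 the difference was 0.17 (95% confidence interval -0.08 to 0.41, adjusted p = 0.790) between siCTU2 and siGL2 and 0.02 between mQ and pQ. Without replicate 3 the second was 0.62 (adjusted p = 0.0150), and without the libraries that stand apart it was 0.48 (adjusted p = 0.119).

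The TDD index, the level with cycloheximide minus the level without, divided by the 0 h level, was 0.10 ± 0.012 for IREB2 in siCTU2 cells (mean ± SD over 3 replicates, 3 and 5 h averaged), 0.049 ± 0.020 in siGL2, 0.023 ± 0.147 in mQ and 0.0036 ± 0.060 in pQ cells. The siCTU2 replicates ranged from 0.0876 to 0.111 and the siGL2 replicates from 0.0282 to 0.0673, but siCTU2 replicate 3 averages an index of -0.000829 at 3 h and one of 0.210 at 5 h, the latter from the library that stands apart. The difference of 0.05 (0.0318 without that library) missed the threshold in the per-gene linear model with time and replicate as terms. FTL had an index of -0.077 in siCTU2, -0.087 in siGL2, -0.075 in mQ and -0.080 in pQ cells. For FTH1, mQ cells were at -0.193 ± 0.144 and pQ cells at -0.025 ± 0.034, a difference of -0.17 that missed the threshold too. The mQ mean includes an index of -0.684 in replicate 3 at 5 h, from the library that stands apart, while the other mQ values ran from -0.194 to -0.0228. Without the libraries that stand apart the difference was -0.0751 and passed the unadjusted threshold, as it did under TMM scaling (-0.306) and with each arm divided by its own 0 h library (-0.439). At the study's unadjusted threshold of 0.05, 0 members differed in either experiment, beside 8.15% of 12263 genes for siCTU2 against siGL2 and 4.78% of 12395 genes for mQ against pQ.

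The coding sequences of the members differ in the codons and amino acids that the study's question turns on. CTU2 acts on tRNAs that read codons such as GAA, AAA and CAA. Of the glutamate codons of IREB2, 78.9% were GAA, percentile 96.5 of 19678 canonical coding sequences (median 40%). TFRC had 45.7%, FTH1 43.8%, FTL 31.2%, ACO1 58.7% and SLC11A2 52%. AAA made up 66% of the lysine codons of TFRC (percentile 90.2), 64.1% of those of IREB2 and 61.5% of those of FTH1, against 25% in FTL (percentile 26.9). Both ferritins were rich in aspartate, with 8.20% of residues in FTH1 (percentile 97.7) and 7.43% in FTL (percentile 95.5), while SLC11A2 had 2.85%.

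The AU-rich pentamer ATTTA, read on the transcribed strand only, occurred 12 times in the 3′ UTR of TFRC, or 4.51 per kb (percentile 88.0 of 18490 3′ UTRs), and 9 times in that of SLC11A2 (3.86 per kb). IREB2 had 7 copies (2.11 per kb), ACO1 had 8 (1.72 per kb), FTH1 had 1 and FTL had 0. The 3′ UTRs were 2658 bases long in TFRC, 442 in FTH1, 144 in FTL, 4658 in ACO1, 3310 in IREB2 and 2333 in SLC11A2. FTL, with the shortest 3′ UTR, and ACO1, with the longest, both lasted longer than most mRNAs, and TFRC, with the most ATTTA copies, did not lie below the median gene in any condition. With 6 genes these features are a description only.

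Across the 24 group means (CPM), the members' patterns were described by Spearman's rank correlation, where groups share conditions and drug treatment and are not independent. The means include the libraries that stand apart and replicate 3 at 5 h, where TFRC, FTH1 and SLC11A2 were lower. Among pairs of members, TFRC and SLC11A2 had the closest patterns (0.806), followed by IREB2 and SLC11A2 (0.770). FTH1 and FTL had 0.12, and ACO1 and IREB2 had -0.573. Among 6424 genes, the closest patterns were those of GTF3C6 (0.956) for TFRC, TRIOBP (0.95) for FTH1, CTSD (0.944) for FTL, C3orf14 (0.811) for ACO1, HIC2 and MTF1 (both 0.955) for IREB2 and NACC2 (0.956) for SLC11A2. MTF1 encodes the zinc-sensing transcription factor of metallothionein genes and CTSD the lysosomal protease cathepsin D. ACO1 had no gene as close as those of the other members.

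Around the members, the wider pathway was read from lists. Of 25 other genes of iron uptake, export and storage, 17 were tested at 0 h. In siCTU2 cells 5 rose and 2 fell, with a median log2 fold change of 0.11 (0.00 over all genes). STEAP3, an endosomal ferrireductase, was at 7.19 CPM against 3.67 in siGL2 (log2 fold change 0.95, edgeR adjusted p = 0.0358), and FBXL5, which targets IRP2 for degradation, was at 127 against 87.0 CPM (0.54, adjusted p = 3.03e-04). PCBP2, an iron chaperone, was at 330 against 492 CPM (-0.58, adjusted p = 2.0e-06). In mQ cells 0 rose and 7 fell, with a median of -0.35 (0.01 over all genes). PCBP1, the chaperone that loads ferritin, was at 248 CPM in mQ and 525 CPM in pQ cells (log2 fold change -1.03, edgeR adjusted p = 2.89e-04). SNX3, which recycles the transferrin receptor, was at 29.2 against 61.9 CPM (-1.04, adjusted p = 0.00424).

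Of 18 genes of haem synthesis, transport and breakdown, 16 were tested, and 3 rose and 3 fell in siCTU2 cells. HMOX1, the haem oxygenase that frees iron from haem, was at 170 CPM against 20.4 in siGL2 cells (log2 fold change 3.05, edgeR adjusted p = 1.16e-11), and CPOX, of haem synthesis, was at 56.0 against 24.9 CPM (1.17, adjusted p = 2.74e-06). BLVRB, a biliverdin reductase, fell to 50.5 from 85.0 CPM (-0.75, adjusted p = 3.03e-06). In mQ cells 2 rose and 3 fell, among them SLC48A1, a haem transporter, which rose (1.47, edgeR adjusted p = 2.22e-04), and CPOX, which fell (-0.79, adjusted p = 0.0023). CPOX and BLVRB thus passed in opposite directions in the siRNA and the medium experiment.

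All 23 iron-sulphur cluster genes were tested, and 5 rose and 7 fell in siCTU2 cells. ISCA1, a cluster assembly protein, was at 13.5 CPM against 34.0 in siGL2 cells (log2 fold change -1.34, edgeR adjusted p = 6.82e-07), whereas ISCA2, whose protein partners ISCA1, was at 31.9 against 14.1 CPM (1.17, adjusted p = 3.01e-05). In mQ cells 2 rose and 6 fell, and BOLA3, which acts in cluster transfer in mitochondria, was at 59.6 CPM in mQ against 120 CPM in pQ cells (-0.96, edgeR adjusted p = 0.0161). Of 12 targets of the antioxidant factor NRF2, to which FTH1 and FTL are also known to belong, 8 rose and 1 fell in siCTU2 cells (median 0.48) and 4 rose and 2 fell in mQ cells (median 0.22). SLC7A11, the cystine transporter, was at 447 against 64.3 CPM in the siRNA experiment (2.80, edgeR adjusted p = 1.82e-13). Of 10 tested amino acid stress response genes, 3 rose and 1 fell in siCTU2 cells and all 10 rose in mQ cells (median 2.73). HMOX1 is counted in both the haem and the NRF2 list, and SLC7A11 in both the NRF2 and the amino acid list. These counts stand beside the shares of all genes called above, and the lists were not tested as sets.

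**Figure D5:**
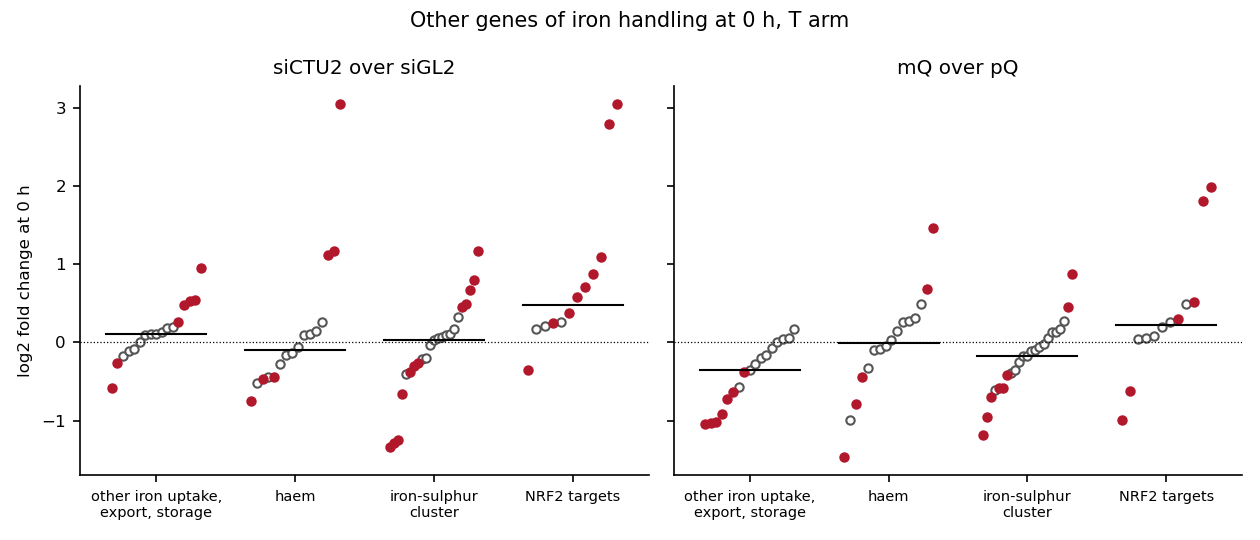
Log2 fold change at 0 h in the T arm (y axis) of every tested gene of 4 lists (other iron genes, haem, iron-sulphur cluster and NRF2 targets), for siCTU2 against siGL2 and for mQ against pQ; red points have an edgeR adjusted p under 0.05, open points do not, and the black bar is each list's median. The median of the other iron genes is -0.35 in the mQ panel, where 7 of 17 fell and 0 rose.

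After the transcription block, 9, 3, 7 and 10 of the other iron genes were called lower in siCTU2, siGL2, mQ and pQ cells, of 18, 17, 17 and 18 tested. Of the iron-sulphur cluster genes 16, 7, 13 and 18 of 23 were called lower, and of the haem genes 9, 5, 7 and 9 of 16. Beside these, 62.6%, 47.5%, 58.6% and 64.3% of all genes tested were called lower in the same conditions. As among the members, siGL2 cells had the fewest calls in each list, which was also so over all genes.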

How the data were processed

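Cytoplasmic RNA of A375 cells was measured in 72 libraries (24 groups of 3) by QuantSeq 3′ sequencing. The authors deposited 1 table of raw read counts per gene name. Per the labels, reads were handled with fastp 0.20.1, HISAT2 2.2.1 and HTSeq 0.13.5 on GRCh38.p13, and the strand setting is not given in the sources used here. Library totals ran from 5987692 to 15534331 counts (median 10300512), which limits the precision of the less abundant members.

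Samples were grouped by the labels' titles and treatment. In R 4.3.3, edgeR 4.0.16 (filterByExpr, glmQLFit, glmQLFTest, Benjamini-Hochberg over all genes kept, threshold 0.05) compared T arm groups at 0 h with TMM scaling. For time and cycloheximide, size factors came from genes with a CPM above 0.2 at 0 h, a CPM at 3 h or 5 h at least 1.1 times that at 0 h, and a 0 h CPM above 0.1 times the later one, after the study's methods (197 and 81 genes with counts in every library, holding 4.30% and 2.51% of counts). The contrast was the mean of 3 and 5 h. Scaled to such genes, which are chosen for a rising share, most other mRNAs decline. The TDD index was fitted by an ordinary linear model per gene with condition, time and replicate, whose 3 h and 5 h values share a 0 h count and are not independent. DESeq2 1.42, other scalings, filters, arms, single times, a replicate block and the leaving out of libraries were alternatives. Same-numbered siCTU2 and siGL2 libraries deviated together at 0 h (correlations 0.147, 0.228 and 0.368), so their numbers were taken to pair them. Those of mQ and pQ did not (0.169, -0.193 and -0.172). The edgeR tests as reported nevertheless had no replicate term, and the permutation of the ferritin ratio was unpaired. Pairing entered only through the alternative with a replicate block. No 2 libraries of a group agreed within sampling noise (chi-square per degree of freedom at least 4.49). The 0 h, time course, cycloheximide, time course difference and TDD fits were tested on data simulated from the siRNA libraries. Except at 0 h, those data were scaled by library totals and not by stable genes. The cycloheximide difference and the fits of the medium experiment were not simulated.

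The members and lists were chosen with earlier results of these data known. All members are named, and of each list up to 2 genes a direction with the largest called change and a mean count of at least 50. Coordinates, UTRs and codons came from GENCODE v44 (GRCh38), and siRNA sequences from the study's oligonucleotide list.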

Additional observations from a re-analysis of the deposited data

How the results depend on the processing

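Of 1062 values of single members under alternative settings, 221 belonged to members called as reported, of which 167 were called in the same direction, 50 kept their direction without a call and 4 changed sign. The values that changed sign or lost a call at 0 h are given with the results above, and FTH1 in the TCHX arm without pQ library 3 (0.23, a setting chosen after seeing the data) had the other sign of its uncalled T arm value.

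For mQ against pQ at 0 h, 2 members were called in the T arm, 1 in the TCHX arm, 1 in both arms together and 1 to 2 when single libraries were left out. In the TCHX arm without pQ library 3 it was 3 (TFRC, FTL and FTH1). For siCTU2 against siGL2 it was 2 to 3 under every setting.

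After the transcription block, the members called in either direction numbered 3 in siCTU2, 2 in siGL2, 3 in mQ and 4 in pQ cells, all lower. With stable genes that met the rule at both times they were 6, 5, 5 and 6. The shares of all genes called are not given for this or the other alternative settings, so such counts do not set the members apart. Leaving out single replicates gave 1 to 3, 1 to 3, 0 to 4 and 2 to 4, the low ends being without replicate 1 in siCTU2, siGL2 and pQ cells and without replicate 2 in mQ cells. TMM scaling gave 3 and 2 in siCTU2 and siGL2 cells, of which only IREB2 was lower in each, and 1 (IREB2) in mQ and 1 (IREB2) in pQ cells. Of the 4 in mQ cells without replicate 3, FTH1 was higher. The 3 h time alone gave 1 in siGL2 cells, 5 h alone gave 2 in pQ cells, and leaving out the libraries that stand apart gave 2 in pQ cells. TMM scaling turned the sign of called or newly called values for FTL (0.41, 0.47, 0.28 and 0.39 for siCTU2, siGL2, mQ and pQ), ACO1 in siCTU2 cells (0.51) and TFRC in pQ cells (0.0129), because it sets the median of all genes near 0. Uncalled values of TFRC, FTH1 and ACO1 below 0 turned positive as well.

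For the cycloheximide effect, siCTU2 cells had 1 member called as reported, 0 at 3 h alone, 0 with the 0 h difference subtracted, 0 with stable genes at both times, 0 with no low-count filter, 2 under TMM scaling (FTL and SLC11A2, both lower, not IREB2) and 0 to 1 without single replicates. In siGL2 and mQ cells it was 0, with 0 to 1 without single replicates and 1 in mQ cells without the libraries that stand apart. In pQ cells it was 0, or 2 (FTL and ACO1, both lower) with stable genes at both times. For the mQ against pQ differences, the time course had 0 to 2 and the cycloheximide effect 0 to 1 without single replicates, with the highest values without replicate 3. For the TDD index, siCTU2 against siGL2 had 0 to 1 without single replicates. For mQ against pQ it had 0 as reported, 1 under TMM scaling, 3 with each arm divided by its own 0 h library, 0 to 1 without single replicates (with FTL at -0.0705 to -5.01e-06, against 0.00468 as reported) and 1 without the libraries that stand apart. The cause of these changes was not tested.

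With the replicate number as a block, TFRC in siCTU2 cells (-0.64) and FTH1 in pQ cells (-0.69) were also called lower after the transcription block. The replicate block changed no other member's call. By their correlations at 0 h, the numbers paired the siRNA libraries and not the medium libraries. At 5 h, however, replicate 3 was lower in FTH1 and TFRC in all 6 groups measured, medium groups among them. The 0 h correlations therefore do not settle whether the numbers pair medium libraries in the time course.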
